A study of Mus musculus with 24 samples.

Results

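The genes described here are 10 members of the complement system: the C1q chains C1qa, C1qb and C1qc, the proteases C1ra and C1s1, their inhibitor Serping1, the components C4b and C3, factor B (Cfb) and the C3a receptor C3ar1. They were chosen by name, with earlier results of these data known. Their Ensembl identifiers were found through an annotation table, which gave all 10 of 10 among the 53700 identifiers counted in microglia and the 55487 counted in astrocytes. The 24 RNA-seq libraries came from adult Serpine2-/- mice (called knockout) and from control littermates that kept 1 or more functional Serpine2 alleles, and mice of each genotype received either saline or lipopolysaccharide (LPS), a bacterial cell wall component. Whole brain, dounced and spun on Percoll, was the source of the microglia, and papain-digested cerebral cortex that of the astrocytes. Both were captured on antibody-coated dishes after perfusion with buffered saline. With 2 cell types, 2 genotypes and 2 injections there were 8 groups of 3 libraries. The dose, time and route of LPS and the alleles of each control mouse are not given in the sources used here. Nothing says whether the 3 libraries of a group came from separate mice, so p-values measure only the spread between these libraries. Serpine2 encodes a secreted inhibitor of serine proteases, and a question of the design was how its loss alters the response of each cell type to LPS.

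Complement is a cascade of plasma and tissue proteins. In the classical pathway C1q, built from the C1qa, C1qb and C1qc chains, binds a target and activates the proteases C1r and C1s, which cleave C4 and C2, and the resulting convertase cleaves C3. The inhibitor encoded by Serping1 blocks C1r and C1s, factor B forms the convertase of the alternative pathway, and the C3a fragment acts on the receptor encoded by C3ar1. In the brain C1q and C3ar1 are known as microglial products, C4b is made by astrocytes, and C3 and Serping1 are widely used as markers of reactive astrocytes.

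On GRCm38 the 3 C1q genes lie side by side on the minus strand of chromosome 4: C1qb (ENSMUSG00000036905) at chr4:136880129-136886187, C1qc (ENSMUSG00000036896) at chr4:136889804-136893065 and C1qa (ENSMUSG00000036887) at chr4:136895917-136898803. C1ra (ENSMUSG00000055172, plus strand) at chr6:124512405-124523443 and C1s1 (ENSMUSG00000038521, minus strand) at chr6:124530345-124542359 are neighbours on chromosome 6, where C3ar1 (ENSMUSG00000040552, minus strand) lies at chr6:122847138-122856161. C4b (ENSMUSG00000073418) at chr17:34728380-34743882, Cfb (ENSMUSG00000090231) at chr17:34856374-34862518 and C3 (ENSMUSG00000024164) at chr17:57203970-57228136 are on the minus strand of chromosome 17. Serping1 (ENSMUSG00000023224, minus strand) is at chr2:84765387-84775444. Cfb shares 79.5% of its exon bases with the overlapping gene Gm20547 on the same strand, and C1s1 shares 18.4% with the antisense gene Gm16567. Reads in bases shared by genes on the same strand can be set aside as ambiguous and counted for neither. The Cfb counts can therefore be too low, and by how much was not tested. Both overlapping genes had 0 counts in every group, and whether the counting used strand is not given in the sources used here. C4b, C1ra and C1s1 have near copies (C4a, C1rb and C1s2), between which the counting could split reads. C4a had between 0 and 183 counts summed over a group against 207 to 8094 for C4b, C1rb had 0 to 4, and C1s2 had 7 to 21.

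RefSeq promoter entries on GRCm38.p6 matched 6 of the 10 members (C3, C1qb, C1qc, C1ra, C1s1 and C3ar1). The 250 bases before the start are shown for C3 and C1s1, which rose together in LPS astrocytes, and for C1qb, the most abundant member in microglia. Each is written 5′ to 3′ along the gene, and the capitals mark a match to 1 of the motifs searched. C3 is from chr17:57228137-57228386, C1s1 from chr6:124542360-124542609 and C1qb from chr4:136886201-136886450, all on the minus strand.
C3: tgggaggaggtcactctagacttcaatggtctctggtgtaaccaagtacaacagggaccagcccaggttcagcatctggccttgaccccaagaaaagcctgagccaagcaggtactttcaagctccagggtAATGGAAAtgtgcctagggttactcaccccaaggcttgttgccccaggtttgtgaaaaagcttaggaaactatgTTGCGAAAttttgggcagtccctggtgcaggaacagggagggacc
C1s1: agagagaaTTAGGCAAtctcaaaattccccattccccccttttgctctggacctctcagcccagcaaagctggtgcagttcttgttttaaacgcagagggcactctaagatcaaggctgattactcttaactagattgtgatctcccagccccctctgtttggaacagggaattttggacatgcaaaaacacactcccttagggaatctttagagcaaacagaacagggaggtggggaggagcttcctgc
C1qb: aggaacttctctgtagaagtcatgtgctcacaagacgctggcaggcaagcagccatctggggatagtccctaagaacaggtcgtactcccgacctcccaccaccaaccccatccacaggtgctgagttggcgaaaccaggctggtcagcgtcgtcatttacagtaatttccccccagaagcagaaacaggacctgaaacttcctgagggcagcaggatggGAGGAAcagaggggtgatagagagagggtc
Motifs were searched on both strands of the 300 bases around each start. They were the STAT motif TTCNNNGAA (in 8.30% of 32851 promoters of that length), the C/EBP motif TTGCNNAA (10.8%), the interferon regulatory factor motif AANNGAAA (23.9%), the PU.1 motif GAGGAA (28.3%) and the NF-kB motif (4.51%). The matches may overlap where motifs share letters. C3 had a C/EBP match starting at base -45 and an interferon regulatory factor match at -119, counted from the start. C1s1 had 2 promoter entries. The first, printed here, had a C/EBP match at -242, and the second had no match. C1qb had a PU.1 match at -30. C1qc, not printed, had matches to the NF-kB motif at -41, the interferon regulatory factor motif at -108 and the PU.1 motif at -193. C3ar1 had an interferon regulatory factor match at -209. C1ra had its matches after the start, to the C/EBP motif at base 17, the STAT motif at 33 and the PU.1 motif at 45. A match describes these letters only.

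Counts assigned to genes totalled 4506142 to 13621776 per microglia library and 10944765 to 25135252 per astrocyte library. Levels are given as CPM (the count of a gene over a common number of counts), with trimmed-mean scaling within a cell type, and as CPM per kilobase of exon where genes are compared with each other. A gene was called at an adjusted p under 0.05 in edgeR's quasi-likelihood test with Benjamini-Hochberg adjustment over all genes tested, each SD is over 3 libraries, and SE is the standard error of a log2 fold change. Serpine2 fell between 46.4 and 96.2 CPM in control microglia and between 16.9 and 20.6 CPM in knockout microglia. In astrocytes the ranges were 78.2 to 169 and 16.4 to 22.2 CPM. The 10 astrocyte markers summed to 14835 to 21209 CPM in astrocyte libraries, and the 10 microglia markers to 1485 to 5547 CPM in microglia libraries. Microglia libraries also held 2044 to 3042 CPM of neuron markers, 969 to 1514 CPM of astrocyte markers and 1661 to 4990 CPM of oligodendrocyte markers. Astrocyte libraries held 2136 to 5402 CPM of oligodendrocyte markers. The library labelled female as the first of the LPS control microglia had 73 counts of Xist and 251 of Ddx3y, the pattern of the libraries labelled male. In bulk libraries, fewer cells of a type and less RNA per cell cannot be told apart.

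**Figure D1:**
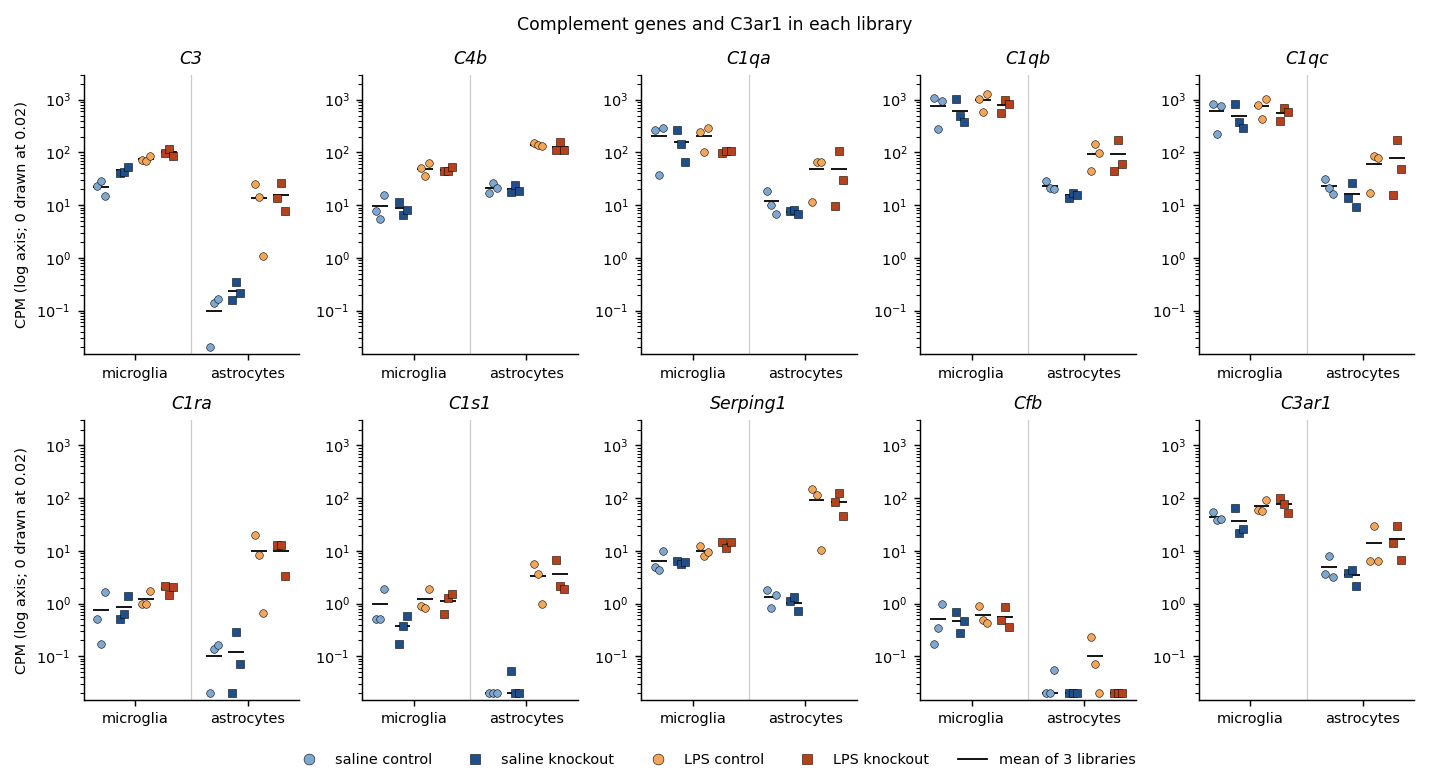
CPM of each complement gene in each of the 24 libraries on a log axis, with microglia and astrocytes apart and 1 point per library in each group of 3. C3 reached 1.07 to 26.3 CPM in LPS astrocytes from at most 0.342 CPM in saline astrocytes. The spread of the C1q genes in microglia varied by group, from 7.79-fold for C1qa in saline controls to 1.11-fold for C1qa in LPS knockouts.

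LPS raised 2 members in microglia and more in astrocytes. In control microglia 2 of the 9 members that passed the filter on low counts rose (C3 and C4b) and none fell, where 0.526% of the 22230 genes tested rose and 0.0495% fell. In knockout microglia the same 2 genes rose and none fell, against 1.01% higher and 0.13% lower over all genes. In control astrocytes 5 of 9 members rose (C3, C4b, C1ra, C1s1 and Serping1), against 0.775% of 18188 genes. In knockout astrocytes those 5 and C1qb rose, 6 of 9, against 1.35%. C3, C1ra and C1s1 were at no more than 0.342 CPM in any saline astrocyte library. They passed the filter only through the LPS libraries, where they were high, so a fall could not have been called for them. Their values also enter the astrocyte medians that follow. Because the members were chosen with earlier results of these data known, the shares set beside them are a description only. The median log2 fold change of the tested members was 0.45 in control and 1.13 in knockout microglia, beside -0.05 and -0.02 over all genes, and 2.71 in both genotypes of astrocytes, beside -0.0040 and 0.04. With C1s1 at its lower bound the control astrocyte median was also 2.71. Cfb did not pass the filter within either cell type.

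**Figure D2:**
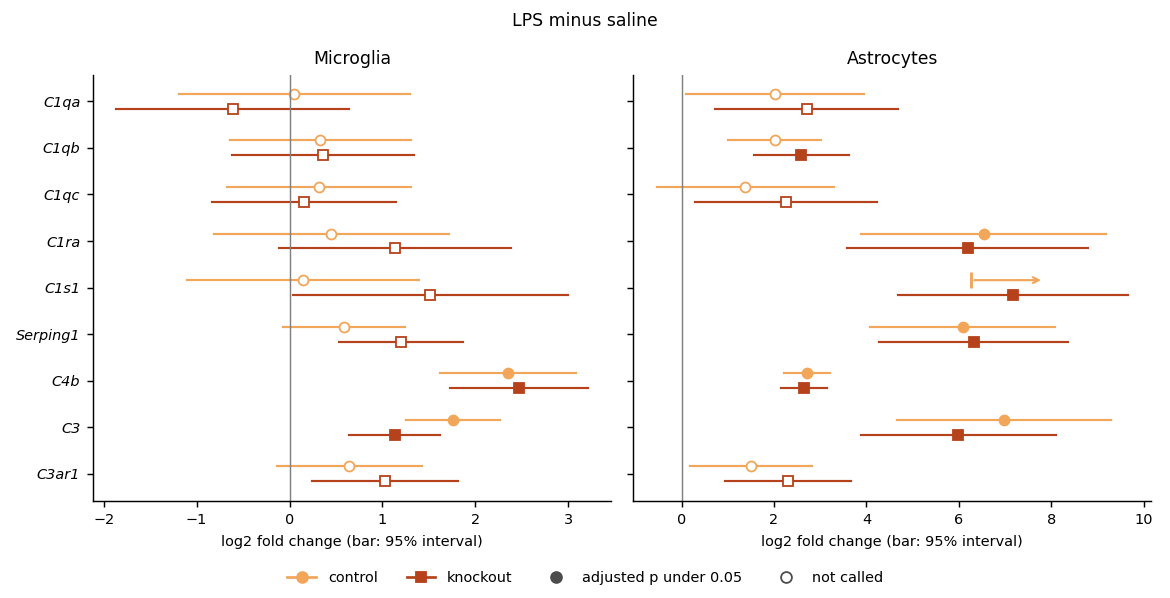
Log2 fold change of LPS over saline for the 9 tested members in microglia (left) and astrocytes (right), with 95% intervals as bars, filled symbols for an adjusted p under 0.05 and an arrow for a lower bound. C4b moved by 2.35 to 2.71 in all 4 comparisons, whereas C3, C1ra and Serping1 moved by 5.99 to 6.98 in astrocytes and by at most 1.76 in microglia.

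C1qb, C1qc and C1qa, which encode the recognition subunit of C1, were the most abundant members in microglia. C1qb was measured at 1088, 273 and 937 CPM in the saline control libraries, and at 1016, 483 and 369 CPM in the saline knockout libraries. After LPS it was at 1031, 585 and 1281 CPM in controls and at 563, 999.8 and 833 CPM in knockouts. The groups overlapped throughout, and the highest saline control library exceeded the lowest 3.98-fold. C1qc followed the same libraries, with 814, 223 and 773 CPM in saline controls and 791, 425 and 1038 CPM in LPS controls. C1qa spread most, from 37.9 to 295 CPM in saline controls. The log2 fold changes on LPS in controls were 0.33 (SE 0.46) for C1qb, 0.32 (SE 0.46) for C1qc and 0.05 (SE 0.58) for C1qa, and none was called. The 95% interval for C1qa, from -1.19 to 1.29, allowed changes of either sign. These values rest on a low library: without the second saline control library they were -0.0296 for C1qb, -0.0375 for C1qc and -0.39 for C1qa.

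Within a library the 3 chains kept more even proportions than their levels. Per kilobase, C1qb made up 59.2 ± 3.31% of the C1q transcripts in saline control microglia (SD), C1qc 26.5 ± 1.84% and C1qa 14.2 ± 4.75%. C1qc stayed between 24.97% and 28.6% in all 12 microglia libraries. C1qa was at 13.2 ± 1.68% in LPS controls and at 9.12 ± 2.00% in LPS knockouts. The ratio of C1qb to C1qa was 4.11, 5.57 and 4.30 in the LPS control libraries and 5.64, 9.04 and 7.53 in the LPS knockout libraries. These 2 groups did not overlap, but the lowest knockout library lay just above the highest control, and saline libraries of both genotypes spanned 3.04 to 6.90. No test was made of this ratio.

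The C1q genes of microglia are read beside the microglia markers, which include Tmem119 and P2ry12. The sum of these 10 markers was 2354 to 5547 CPM in saline microglia and 1485 to 3084 CPM in LPS microglia. The summed C1q level divided by the marker sum was 0.187 to 0.443 in the 6 saline libraries and 0.651 to 0.863 in the 6 LPS libraries. The ratio did not overlap between injections, although the C1q level itself did. Several of these markers are themselves known to fall in activated microglia, so the ratio is a description of 2 gene groups.

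**Figure D3:**
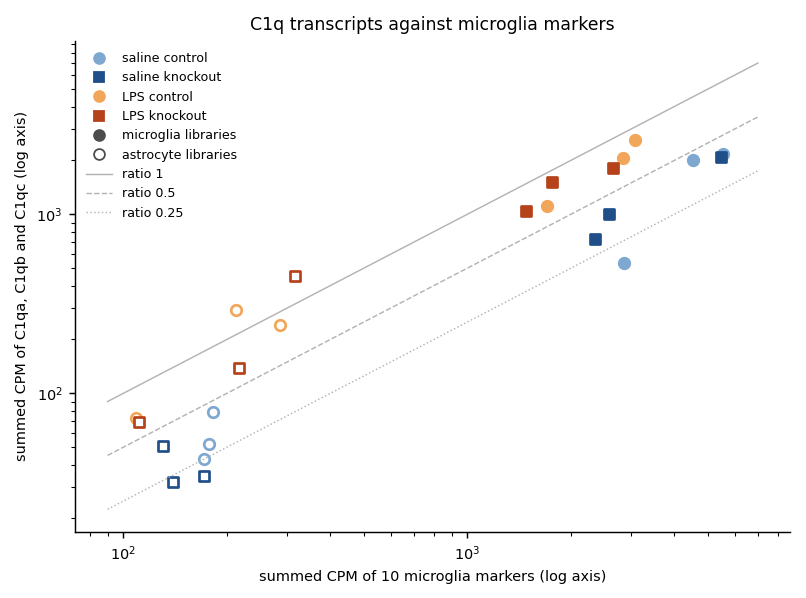
Summed CPM of C1qa, C1qb and C1qc against the summed CPM of 10 microglia markers in each of the 24 libraries, on log axes, with symbols by cell type, genotype and injection. In both cell types the LPS libraries lie at a higher C1q level for their marker level than the saline libraries, with ratios from 0.622 to 1.44 after LPS and from 0.187 to 0.443 after saline.

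In astrocyte libraries the C1q genes were lower than in microglia in saline and uneven after LPS. On the scale of a fit of all 24 libraries C1qb averaged 49.2 CPM in saline control astrocytes and 452 CPM in saline control microglia. After LPS C1qa averaged 100 ± 65.8 CPM (SD) in control astrocytes and 128 ± 57.6 CPM in control microglia. In knockouts these were 104 ± 110 and 62.5 ± 4.08 CPM. In controls C1qb (197 against 593) and C1qc (125 against 461) averaged lower in astrocytes. The values below are scaled within astrocytes. C1qb was measured at 28.7, 20.9 and 20.4 CPM in saline controls, at 13.6, 16.7 and 15.8 CPM in saline knockouts, at 44.4, 142 and 95.9 CPM in LPS controls and at 43.9, 175 and 60.1 CPM in LPS knockouts. Every LPS library was above every saline library of its genotype. C1qb rose in knockout astrocytes, with a log2 fold change of 2.59 (SE 0.48, adjusted p = 0.0167). In control astrocytes the value was 2.01 (SE 0.47, adjusted p = 0.0603), and with the replicate number as a block it was 1.82 (adjusted p = 0.0272). The knockout call was lost without any 1 of the 3 saline knockout libraries (adjusted p 0.105 to 0.114). C1qa was not called, at 2.01 (adjusted p = 0.388) in controls and 2.71 (adjusted p = 0.195) in knockouts, and C1qc was at 1.37 (adjusted p = 0.600) and 2.26 (adjusted p = 0.287). In the first LPS control library C1qa was at 11.5 CPM, within the range of the saline control libraries. In the first LPS knockout library C1qa was at 9.41 CPM, just above the saline knockout libraries (at most 8.10 CPM). The other 4 LPS libraries held 30.5 to 108 CPM.

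Microglia markers followed these values in part. In the 3 LPS control astrocyte libraries the 10 markers summed to 109, 212 and 285 CPM, and in the 3 LPS knockout libraries to 111, 315 and 217 CPM, against 130 to 183 CPM in saline astrocytes. The first LPS library of each genotype was lowest in its group both for these markers and for all 3 C1q genes, but its markers were below every saline library and its C1qb above every saline library. Among LPS controls the third library had the most marker CPM and the second the most summed C1q, 291 against 240 CPM. The ratio of C1q to markers was 0.202 to 0.432 in saline and 0.622 to 1.44 in LPS astrocyte libraries, where the second library of each genotype, at 1.37 and 1.44, exceeded every microglia library (at most 0.863). Per kilobase the ratio of C1qb to C1qa averaged 1.96 to 2.63 in the 4 astrocyte groups and 4.10 to 7.41 in the 4 microglia groups. The part of microglial RNA in the C1q values of astrocyte libraries was not tested.

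C1ra and C1s1 encode the proteases of C1, and Serping1 encodes the inhibitor that acts on both. In saline astrocytes C1ra had 0, 3 and 3 counts in controls and 0, 6 and 1 counts in knockouts. After LPS it had 434, 114 and 8 counts in controls and 354, 245 and 65 counts in knockouts, which is 20.4, 8.33 and 0.659 CPM and 13.02, 13.2 and 3.31 CPM. All 6 LPS libraries were above all 6 saline libraries, but the third LPS control library was far below the others. The log2 fold change was 6.54 (SE 1.24, adjusted p = 0.0227) in controls and 6.19 (SE 1.21, adjusted p = 0.0240) in knockouts. From the summed counts the ratio in controls was 118, with a 95% counting interval of 54.0 to 324. That interval covers counting error only, since the reads carry no molecular identifiers and may be copies of 1 molecule.

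C1s1 had 0 counts in all 3 saline control astrocyte libraries and a single count in 1 of the 3 saline knockout libraries. After LPS it had 119, 49 and 12 counts in controls (5.60, 3.58 and 0.988 CPM) and 185, 40 and 37 counts in knockouts (6.80, 2.15 and 1.89 CPM). C1s1 was called in both genotypes (adjusted p = 0.00498 and 0.00845). Against a floor of 3 counts over the saline control group, C1s1 was at least 76.6-fold higher after LPS in controls. In knockouts the ratio of summed counts was 214, with a counting interval of 38.1 to 8484 that a denominator of 1 count leaves wide.

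Serping1 was measured at 1.78, 0.820 and 1.46 CPM in saline controls and at 1.11, 1.32 and 0.717 CPM in saline knockouts. After LPS it stood at 151, 113 and 10.6 CPM in controls and at 85.8, 125 and 45.6 CPM in knockouts. Every LPS library was above every saline library. Its log2 fold change was 6.08 (SE 0.91, adjusted p = 0.0128) in controls and 6.32 (SE 0.93, adjusted p = 0.0109) in knockouts. The inhibitor reached a higher mean level per kilobase after LPS than either protease: 39.3 ± 31.2 CPM per kilobase (SD) in control astrocytes, against 3.29 ± 3.35 for C1ra and 1.08 ± 0.739 for C1s1.

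Many of these calls were lost when 1 library was left out, mostly a saline one, whichever of the 3 it was. In controls C3, Serping1 and C1ra were no longer called without any 1 of the 3 saline libraries (adjusted p 0.0569 to 0.0676 for C3, 0.0784 to 0.103 for Serping1 and 0.130 to 0.159 for C1ra), and C1ra also not without the first or the second LPS control library (0.0511 and 0.0678). In knockouts the same held for C3 (0.0823 to 0.0917), Serping1 (0.0813 to 0.0943) and C1ra (0.0874 to 0.156), for C1ra without the second LPS knockout library (0.0661) and for C1s1 without the second or the third saline library (0.0595 and 0.0610). The log2 fold changes of C3, C1ra and Serping1 stayed between 5.41 and 8.03 in all such fits. Fitted with only the 2 groups compared, Serping1 in controls had an adjusted p of 0.1002.

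In microglia C1ra and C1s1 were near the limit of detection, at no more than 2.12 and 1.93 CPM in any library, and Serping1 was low. Serping1 was at 4.99, 4.44 and 10.1 CPM in saline controls and at 12.5, 7.99 and 9.64 CPM in LPS controls, groups that overlapped. It was at 6.40, 5.61 and 6.07 CPM in saline knockouts and at 14.98, 11.4 and 14.9 CPM in LPS knockouts, which did not overlap. Its log2 fold change was 0.59 (SE 0.31, adjusted p = 0.736) in controls and 1.201 (SE 0.31, adjusted p = 0.0975) in knockouts. With DESeq2 the knockout value was 1.21 (adjusted p = 0.0107). Microglia libraries also held astrocyte markers, and the part of astrocyte RNA in these values was not tested.

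C4b, which encodes the C4 component cleaved by C1s, rose in the libraries of both cell types and both genotypes. The part of astrocyte RNA in the microglia values of C4b was not tested. In microglia it was measured at 7.58, 5.46 and 15.3 CPM in saline controls, 11.6, 6.53 and 7.90 CPM in saline knockouts, 49.8, 36.1 and 62.5 CPM in LPS controls and 44.7, 45.0 and 52.3 CPM in LPS knockouts. In astrocytes it was at 17.1, 25.9 and 20.8 CPM in saline controls, 17.9, 23.97 and 18.7 CPM in saline knockouts, 152, 136 and 130.2 CPM in LPS controls and 110, 156 and 112 CPM in LPS knockouts. No saline library reached the level of any LPS library of its cell type. C4b rose by log2 fold changes of 2.35 (SE 0.34, adjusted p = 0.00299) and 2.47 (SE 0.35, adjusted p = 0.00182) in control and knockout microglia. In astrocytes the rise was 2.71 (SE 0.24, adjusted p = 1.27e-05) and 2.64 (SE 0.24, adjusted p = 2.76e-05). C4b was called in each of these 4 comparisons whichever library was left out. After LPS its astrocyte libraries were also the most even of the members that rose, with the highest 1.17-fold above the lowest in controls and 1.41-fold in knockouts.

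C3, the central component on which all pathways converge, was present in saline microglia and close to undetected in saline astrocytes. In microglia C3 was at 22.9, 28.5 and 15.1 CPM in saline controls, 41.4, 42.0 and 53.9 CPM in saline knockouts, 71.5, 67.9 and 83.8 CPM in LPS controls and 99.1, 117 and 85.9 CPM in LPS knockouts. The 4 groups did not overlap and stood in that order. C3 rose on LPS by 1.76 on the log2 scale (SE 0.24, adjusted p = 0.00181) in controls and by 1.13 (SE 0.23, adjusted p = 0.0244) in knockouts. The knockout call was lost without any 1 of the 6 libraries compared (adjusted p 0.0594 to 0.189) and with sex as a covariate (1.11, adjusted p = 0.0662). The control call held in every such fit, the library with the contrary sex transcripts included (adjusted p 0.00155 to 0.0143). The sex covariate used the labels, mostly male in saline microglia and mostly female in LPS microglia. In it the library with the contrary sex transcripts kept its label.

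In astrocytes C3 had 0, 3 and 3 counts in saline controls and 3, 7 and 3 counts in saline knockouts, at most 0.342 CPM. After LPS the counts were 533, 191 and 13 in controls and 367, 488 and 150 in knockouts, which is 25.1, 13.9 and 1.07 CPM and 13.5, 26.3 and 7.65 CPM. Every LPS library was above every saline library, and the third LPS control library was the lowest of the 6 by a wide margin. The log2 fold change was 6.98 (SE 1.08, adjusted p = 0.00673) in controls and 5.99 (SE 0.99, adjusted p = 0.00976) in knockouts. The ratio of summed counts was 157 in controls, with a counting interval of 71.7 to 429. Even so, C3 in LPS astrocytes, at 2.6 ± 2.34 CPM per kilobase (SD) in controls, stayed below C4b at 24.4 ± 1.98.

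Cfb, the protease component of the alternative pathway convertase, had few counts, which may leave out reads in the bases it shares with Gm20547. Its counts summed over 3 libraries were 14, 11, 23 and 12 in saline control, saline knockout, LPS control and LPS knockout microglia, and 1, 0, 6 and 0 in the same groups of astrocytes. A count of 0 over the LPS knockout astrocytes allows up to 3 counts over the group.

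C3ar1, the receptor for C3a, was measured at 55.4, 38.9 and 39.4 CPM in saline control microglia and at 59.1, 57.8 and 91.9 CPM in LPS control microglia, groups that did not overlap but nearly met. In knockout microglia it was at 64.9, 21.9 and 25.7 CPM after saline and 99.1, 77.2 and 51.6 CPM after LPS, and the first saline library overlapped the LPS group. The log2 fold changes, 0.64 (SE 0.37, adjusted p = 0.761) and 1.03 (SE 0.37, adjusted p = 0.357), were not called. Without the first saline knockout library the second was 1.65 (adjusted p = 0.0246). In astrocytes C3ar1 was at 2.15 to 7.83 CPM in the 6 saline libraries, at 6.40, 29.1 and 6.42 CPM in LPS controls and at 14.3, 30.3 and 6.78 CPM in LPS knockouts. Its log2 fold changes were 1.505 (SE 0.62, adjusted p = 0.330) and 2.30 (SE 0.64, adjusted p = 0.0939). With the replicate number as a block the astrocyte knockout value was 2.10 (adjusted p = 0.00664). The second LPS library of each genotype was highest for C3ar1, at microglia marker sums of 212 and 315 CPM, while the third LPS control library had the highest marker sum of its group (285 CPM) and 6.42 CPM of C3ar1.

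The astrocyte LPS libraries differed from each other in a gene-dependent way. In both genotypes the third LPS library had the lowest C3, C1ra, C1s1 and Serping1 of its group. The highest library exceeded it 23.4-fold for C3, 31.0-fold for C1ra, 5.67-fold for C1s1 and 14.2-fold for Serping1 in controls, and 3.43-fold, 3.98-fold, 3.61-fold and 2.74-fold in knockouts. C4b did not share this spread, and the C1q genes were instead lowest in the first library, where the highest exceeded it 5.81-fold (C1qa), 3.19-fold (C1qb) and 5.07-fold (C1qc) in controls. The third LPS libraries of both genotypes were labelled female and the first 2 male, so sex, library number and library cannot be told apart. With the third LPS library left out in each genotype, the log2 fold changes were 7.54 (C3), 7.10 (C1ra) and 6.62 (Serping1) in controls and 6.33, 6.61 and 6.63 in knockouts.

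Markers of other cell types also differed among these 6 libraries. The 10 monocyte markers summed to 123, 99.9 and 51.6 CPM in LPS controls and 167, 123 and 64.3 CPM in LPS knockouts, lowest in the third library of each, against 35.9 to 65.6 CPM in saline, where Ccr2, Plac8, F10 and Ms4a4c were at 0 in all 6 libraries. The 10 endothelial markers summed to 20.6, 49.0 and 17.7 CPM and to 47.0, 91.4 and 35.9 CPM, against 4.23 to 12.9 CPM in saline. The 10 vascular fibroblast markers summed to 35.2, 100.2 and 63.2 CPM and to 40.3, 150 and 51.5 CPM, against 23.2 to 39.0 CPM. Of the 12 neutrophil markers Camp and Ltf were at 0 in all 6 libraries, and without Lcn2, which astrocytes also make, the others summed to 2.57 to 26.2 CPM. The part of these cells in the C3, C1ra, C1s1 and Serping1 values was not tested.

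**Figure D4:**
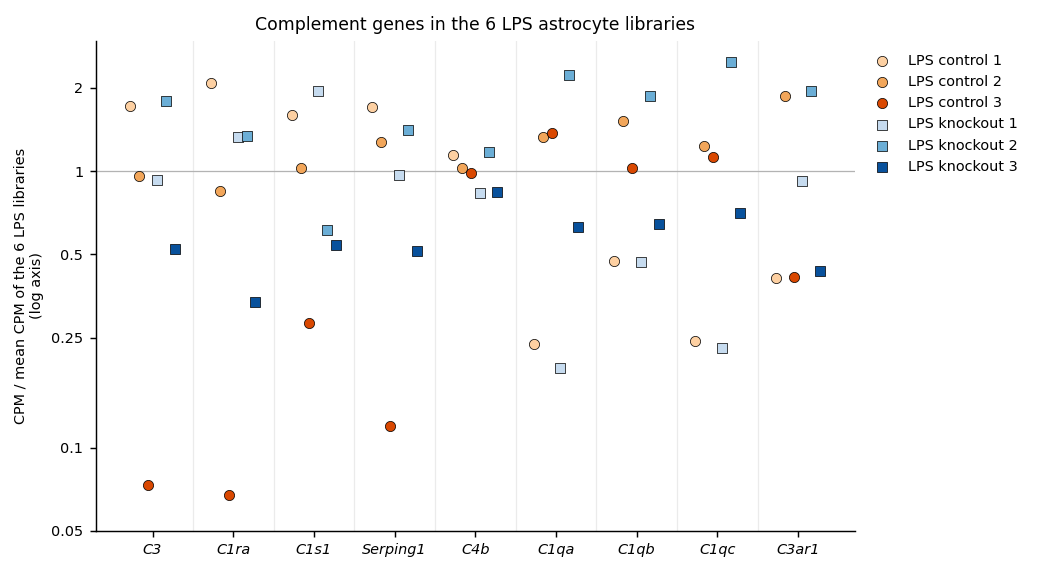
CPM of 9 complement genes in each of the 6 LPS astrocyte libraries, divided by the mean of the 6, on a log axis, with circles for control and squares for knockout libraries. The third libraries (darkest) are lowest for C3, C1ra, C1s1 and Serping1 in their genotype, the first (lightest) are lowest for the C1q genes, and C4b stays within 1.41-fold in each genotype.

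Loss of Serpine2 gave no called difference in any complement gene. In saline microglia 0 of 9 tested members were called by edgeR (0 by DESeq2, 1 at an unadjusted p under 0.05), where 0% of all genes were called. In LPS microglia 0 of 9 were called (0 by DESeq2, 0 at an unadjusted p under 0.05), against 0%. Averaged over both injections 0 of 9 were called (0 by DESeq2, 1 at an unadjusted p under 0.05), against 0.0045%, and for the difference of the LPS response between genotypes 0 of 9 (0 by DESeq2, 0 at an unadjusted p under 0.05), against 0%. These percentages are of edgeR calls. At an unadjusted p under 0.05 there were, in that order, 351, 335, 449 and 251 of the 22230 genes. DESeq2 counts over all genes are given below. In astrocytes no member was called by edgeR or DESeq2 in saline, in LPS or on their average, and 0 had an unadjusted p under 0.05 in each, with 0.0055% of genes called in each of these comparisons. For the difference of the LPS response in astrocytes the member counts were again 0 with both tools and 0 at an unadjusted p under 0.05, against 0% of all genes. In astrocytes 500, 497, 540 and 474 of the 18188 genes had an unadjusted p under 0.05 in saline, in LPS, on average and for that difference.

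C3 in microglia was the member with an unadjusted p under 0.05, in saline and on average. In saline C3 averaged 22.2 ± 6.72 CPM in controls and 45.8 ± 7.10 CPM in knockouts (SD), and its groups did not overlap. The log2 difference was 1.06 (SE 0.24, 95% interval 0.55 to 1.56), and the adjusted p was 0.9997. Without the filter on low counts the adjusted p of C3 was 0.0344, in a fit that called more genes in this comparison than the filtered fit did. After LPS the difference was 0.43 (SE 0.23, adjusted p = 0.9999), again without overlap, at 74.4 ± 8.37 CPM in controls and 100.5 ± 15.3 CPM in knockouts. The average of both was 0.74 (SE 0.16, adjusted p = 0.99999), and the difference between the LPS responses was -0.62 (SE 0.33, adjusted p = 0.9999).

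Neutrophil markers differed in the same direction as C3 in saline microglia. The 12 markers summed to 809 to 953 CPM in the saline control libraries and to 1499 to 2745 CPM in the saline knockout libraries, with none of the markers at 0, and the 10 monocyte markers to 190 to 240 and 214 to 280 CPM. After LPS the neutrophil sums overlapped, at 777 to 1148 CPM in controls and 585 to 1382 CPM in knockouts. The part of these cells in the C3 difference was not tested.

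The other members showed knockout differences of either sign and wide intervals. C1qa in LPS microglia was at 239, 100.4 and 285 CPM in controls and 95.4, 106 and 106 CPM in knockouts, overlapping groups with a log2 difference of -1.02 (SE 0.59, adjusted p = 0.9999). With the filter on low counts the unadjusted p of C1qa in edgeR was 0.103. Without that filter its adjusted p was 0.0160, in a fit that called more genes in this comparison than the filtered fit did. In saline astrocytes all 3 knockout values of C1qb lay below all 3 control values, with a log2 difference of -0.60 (SE 0.46, adjusted p = 1). C4b in LPS astrocytes differed by -0.14 (SE 0.22). Over the tested members the knockout difference spanned -1.43 to 1.06 in saline microglia, -1.02 to 0.67 in LPS microglia, -0.64 to 1.93 in saline astrocytes and -0.14 to 0.39 in LPS astrocytes. The saline astrocyte maximum is the fitted value of C1s1, with 1 count against 0. Serpine2 itself was not called in microglia by edgeR in saline (log2 difference -1.82, adjusted p = 0.191) or in LPS (-1.90, adjusted p = 0.118), although DESeq2 called it in both (adjusted p = 6.19e-06 and 4.95e-07) and edgeR called it on their average (-1.86, adjusted p = 0.00221). Differences of that size could thus be missed here. An adjusted p above the threshold does not show that the genotypes were alike.

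**Figure D5:**
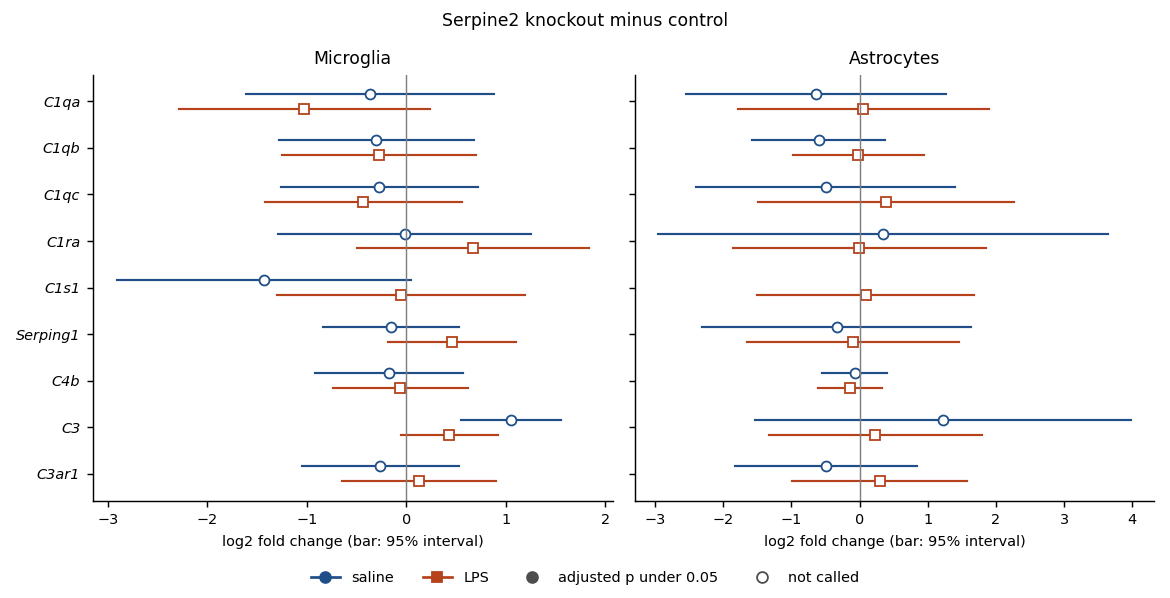
Log2 difference of knockout over control for the tested complement genes in saline and in LPS libraries of microglia and astrocytes, with 95% intervals as bars. C3 in saline microglia (1.06, interval 0.55 to 1.56) lies above 0, and no difference had an adjusted p under 0.05.

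Compared across cell types in saline controls, 6 of 10 members were higher in microglia and 1 was lower, where 32.1% of 24607 genes were higher and 23.6% lower. C3 was higher by 5.91 on the log2 scale (SE 0.85, adjusted p = 2.50e-06), C1qb by 3.20 (SE 0.52), C1qc by 2.87 (SE 0.72), C1qa by 2.24 (SE 0.79) and C3ar1 by 1.35 (SE 0.54, adjusted p = 0.0363), and C1s1 by at least 6.64-fold. C4b was the member lower in microglia, by 7.90-fold (log2 difference -2.98, SE 0.30, adjusted p = 8.63e-09). C1ra (1.21, adjusted p = 0.378), Serping1 (0.47, adjusted p = 0.512) and Cfb (14 against 1 counts, a ratio of 10.3 with a counting interval of 1.57 to 437) were not called. The median log2 difference was 2.53 over the members, 2.49 with C1s1 at its bound, and 0.38 over all genes. With size factors by relative log expression the median of all genes moved to 0.68 and C4b stood at -2.68. C3ar1 was not called without the first or the second microglia library or the first or the third astrocyte library (adjusted p 0.0521 to 0.129), and C1qa not without the first or the third microglia or the second or the third astrocyte library (0.0633 to 0.0801). Cell type goes with brain region, preparation and gene annotation, which cannot be told apart.

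Per kilobase, the order of levels in saline control microglia was C1qb (704 ± 399), C1qc (312 ± 171), C1qa (193 ± 136), C3ar1 (10.4 ± 2.18), C3 (4.31 ± 1.31), Serping1 (2.80 ± 1.35), C4b (1.66 ± 0.908), C1s1 (0.312 ± 0.256), C1ra (0.259 ± 0.255) and Cfb (0.178 ± 0.154), as mean CPM per kilobase ± SD. The Cfb value is over all its exon bases, those shared with Gm20547 included, so its place is uncertain. The C1q genes lay apart from C3ar1, and C3ar1 from C3. Serping1 differed from C3 and from C4b by less than the sum of both SDs, C4b lay above C1s1 by more, and neighbours among the C1q genes and among the last 3 differed by less. In saline control astrocytes C1qb (21.4 ± 4.32), C1qc (11.9 ± 4.16) and C1qa (11.3 ± 5.78) again came first, followed by C4b (3.73 ± 0.771), C3ar1 (1.14 ± 0.594) and Serping1 (0.582 ± 0.211). In LPS control astrocytes the order was C1qb (86.5 ± 44.8), C1qa (45.8 ± 30.1), Serping1 (39.3 ± 31.2), C1qc (30.9 ± 19.3) and C4b (24.4 ± 1.98), and all neighbours in it differed by less than the sum of both SDs.

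The LPS response itself was compared between the cell types. In controls 3 of 10 members differed (C3, C1s1 and Serping1), against 0.203% of all genes, and in knockouts 2 of 10 (C3 and Serping1), against 0.272%. The response of C3 was smaller in microglia, with a log2 difference of -5.21 (SE 1.03, adjusted p = 0.0283) in controls and of -4.86 (SE 0.94, adjusted p = 0.0177) in knockouts. The level of C3 after LPS was not higher in astrocytes. On the scale of the 24-library fit it averaged 45.8 ± 4.56 CPM (SD) in control microglia and 28.1 ± 25.3 CPM in control astrocytes. In knockouts these were 61.2 ± 7.46 and 33.4 ± 20.0 CPM. For Serping1 the difference of response was -5.42 (SE 0.81, adjusted p = 0.00258) and -5.11 (SE 0.82, adjusted p = 0.00500). C1s1 in controls had an adjusted p of 0.0131. Its astrocyte response was at least 76.6-fold, and in microglia the ratio of pooled CPM was 0.951, with a counting interval of 0.573 to 1.604. That ratio leans on the third saline control library, with 21 of the 27 saline counts. The fitted log2 fold change of C1s1 was 0.14 (SE 0.59) in control microglia. In knockout microglia it was 1.52 (SE 0.69, adjusted p = 0.639), on 10 saline and 28 LPS counts in groups that did not overlap. C1ra, at -6.00 (adjusted p = 0.0703) and -5.06 (adjusted p = 0.112), and C1s1 in knockouts, at -5.75 (adjusted p = 0.0927), were not called. With the replicate number as a block C1s1 in knockouts was at -5.87 (adjusted p = 0.0274), and without the third astrocyte LPS library of each genotype C1ra was at -6.57 (adjusted p = 0.00202) and -5.51 (adjusted p = 0.00739). C4b did not differ beyond its error, at -0.29 (95% interval -1.10 to 0.53) in controls. Serping1 was called whichever library was left out. C3 in controls was not called without any 1 of 10 of the 12 libraries compared (adjusted p 0.0527 to 0.0869), the exceptions being the third microglia saline and the third astrocyte LPS library. C1s1 in controls was not called without the third microglia saline or the first or the second microglia LPS library (0.0562 to 0.0681), and C3 in knockouts not without the first or the third microglia LPS library or any 1 astrocyte saline library (0.0516 to 0.0693).

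Beyond the 10 members, 46 other complement genes were listed, of which 29 passed the filter in microglia and 23 in astrocytes. In control microglia 0 of 29 were called on LPS by edgeR (4 higher by DESeq2, 8 at an unadjusted p under 0.05). Of all 22230 genes, 0.526% were called higher and 0.0495% lower by edgeR, and 1619 had an unadjusted p under 0.05. DESeq2 counts over all genes are given below with the other settings. In knockout microglia 3 of 29 rose and 1 fell, against 1.01% higher and 0.13% lower over all genes. Those that rose were properdin (Cfp, a stabiliser of the alternative convertase) by 1.30 (SE 0.22), the C5a receptor C5ar1 by 1.83 (SE 0.37) and Cd93 by 1.72 (SE 0.34). Fcnb, a ficolin of myeloid cells, fell by 2.595 (SE 0.49) from 7.02 ± 2.31 to 1.31 ± 0.988 CPM (SD). C5ar1 was not called without any 1 of the 6 libraries (adjusted p 0.0511 to 0.142), Cd93 not in 5 of those 6 fits and Fcnb not in 3. In control astrocytes 0 of 23 were called by edgeR (4 higher by DESeq2, 7 at an unadjusted p under 0.05). Of all 18188 genes, 0.775% were called higher by edgeR and 2192 had an unadjusted p under 0.05. In knockout astrocytes 2 of 23 rose, against 1.35% of all genes. Vtn, which encodes vitronectin, rose by 2.81 (SE 0.54) and Cd93 by 4.30 (SE 0.76). Neither was called without any 1 of the saline knockout libraries (adjusted p 0.0609 to 0.0983), nor Vtn without 1 of the LPS libraries (0.0927). No other complement gene was called between genotypes in either cell type by edgeR or DESeq2. At an unadjusted p under 0.05 there were 0 in saline and 1 in LPS microglia, and 2 in saline and 1 in LPS astrocytes. Over all genes these were 351 and 335 of 22230 in microglia, and 500 and 497 of 18188 in astrocytes.

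Between cell types in saline controls 16 of 35 other complement genes were higher in microglia and 3 lower, where 32.1% of all genes were higher and 23.6% lower. Among those higher were the receptor chains Itgb2 by 4.07 (SE 0.57) and Itgam by 2.20 (SE 0.54) on the log2 scale. Those lower were Clu, which encodes clusterin, a regulator of the terminal pathway (-5.52, SE 0.31), the lectin pathway protease Masp1 (-2.24, SE 0.40) and C1rl (-2.33, SE 0.87). C1rl rested on 1 library: without the first astrocyte saline control its log2 difference was 0.51 (adjusted p = 0.599), and with a replicate block it was -1.56 (adjusted p = 0.129). Terminal components were scarce, with Hc, which encodes C5, at 0.372 ± 0.297 CPM (SD) in saline control microglia.

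Genes with the most similar pattern over the 12 libraries of a cell type were found by Pearson's r of log2 CPM over genes averaging 8 CPM or more. In microglia (12893 genes) C1qb was closest to C1qc (r = 0.991), Pld4 (0.985) and Ctsa (0.985), C3 to Anxa2 (0.949), Lyz2 (0.944) and Vim (0.938), C4b to H2-K1 (0.973), Tmem106a (0.971) and Siglec1 (0.971), and C3ar1 to Ctsl (0.952), Birc3 (0.935) and Tlr1 (0.934). In astrocytes (7736 genes) C3 was closest to Lcn2 (0.986), Serpina3n (0.982) and Cxcl9 (0.981). C4b was closest there to Lgals3bp (0.981), Ifitm3 (0.978) and Oasl2 (0.974), and C1qb to Sparc (0.973), Ly6e (0.965) and Gm5905 (0.960). C3 and C4b, though both raised by LPS in astrocytes, shared none of their 3 closest genes. All these libraries share groups and injections, so the values describe the 12 libraries only.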

How the data were processed

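RNA-seq counts of 24 libraries (3 in each of 8 groups, taken from the sample titles) were used. The deposited files hold whole-number counts per Ensembl identifier. Per the submitters' processing notes the authors used STAR 2.6.0c and HTSeq with GRCm38 and GRCm39, and which table used which build, the annotation release and the strand setting are not given in the sources used here. Reads outside genes (65.7 to 77.9% of gene plus no-feature counts in microglia, 21.0 to 27.9% in astrocytes) were left out of library sizes. Mitochondrial and ribosomal RNA genes took 44.3 to 64.2% of gene counts in astrocytes and 2.45 to 6.00% in microglia. No 2 libraries were identical.

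Symbols, exon lengths and positions came from GENCODE release 21 (GRCm38). The 52404 identifiers shared by both tables served the 24-library fit. Counts were filtered with filterByExpr (minimum count 10, total 15), scaled by TMM and tested with edgeR 4.0.16 (glmQLFit, robust, and glmQLFTest, two-sided) in R 4.3.3 for 15 comparisons, within each cell type over 12 libraries or over all 24, with Benjamini-Hochberg adjustment over all genes tested. The scripts were tested on simulated data. Log2 CPM used a prior count of 2. Alternatives were DESeq2 1.42.0, other scaling, filters, sex, replicate blocks and left-out libraries.

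Libraries with the same number deviated together in 2 of 8 pairings: genotypes within LPS astrocytes (r 0.283 to 0.630) and injections within knockout astrocytes (r 0.184 to 0.236). The numbers come from the sample titles. The named genes are the 10 members, Serpine2, and other listed complement genes called in a comparison or averaging at least 8 CPM in a cell type, of which some are given as counts. The members and lists were chosen with earlier results of these data known.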

Additional observations from a re-analysis of the deposited data

Results flagged for a closer look

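The LPS response of 5 gene and genotype pairs differed between microglia and astrocytes by a test of the difference itself (edgeR's quasi-likelihood test with Benjamini-Hochberg adjustment over 24607 genes). In controls the log2 difference, microglia minus astrocytes, was -5.21 for C3 (adjusted p = 0.0283), -5.42 for Serping1 (adjusted p = 0.00258) and -9.14 for C1s1 (adjusted p = 0.0131). In knockouts it was -4.86 for C3 (adjusted p = 0.0177) and -5.11 for Serping1 (adjusted p = 0.00500). The fitted C1s1 value depends on the prior count, because all 3 saline control astrocyte libraries had 0 counts. Cell type, brain region, preparation and gene annotation cannot be told apart here.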

How the results depend on the processing

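Of 27 member calls, 201 of 203 values under other settings kept direction and call, 2 lost the call (C3 in knockout microglia with sex as a covariate, Serping1 in control astrocytes with only 2 groups) and 0 turned. Under leave-one-out 134 of 192 kept the call, 58 lost it and 0 turned. Values that turned sign when leaving out 1 library were C1rl between cell types (0.51 without astrocyte saline control replicate 1, range -2.88 to 0.51), and in control microglia on LPS C1qb (-0.0296 without saline replicate 2, range to 0.76), C1qc (-0.0375 without it, range to 0.68) and C1qa (-0.39 without it, -0.0081 and -0.19 without LPS replicates 1 and 3, range to 0.43). So did C1ra between cell types (-0.0021 without microglia saline replicate 3, range to 1.67) and the C4b control difference of LPS response (0.23 without it, range -0.53 to 0.23). All but C1rl were uncalled with all libraries. The causes were not tested.

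Counts of members called moved as follows. Without the filter on low counts they went from 2 to 4 (LPS, knockout microglia), from 5 to 9 (LPS, control astrocytes), from 0 to 1, 1 and 2 (knockout in saline, in LPS and on average, microglia), and from 3 to 6 and from 2 to 7 (difference of LPS response between cell types, control and knockout). With sex as a covariate the count for LPS in knockout microglia went from 2 to 1. For the knockout difference of LPS response between cell types DESeq2 gave 4, and leaving out the third astrocyte LPS library of both genotypes, chosen after seeing the data, also gave 4. Leave-one-out counts ran from 1 to 2 (LPS, knockout microglia), 2 to 5 and 1 to 7 (LPS, control and knockout astrocytes), 1 to 4 and 1 to 4 (difference of LPS response between cell types, control and knockout).

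Over all genes, 128, 254, 169, 283, 50 and 67 were called for LPS in microglia (control, knockout), LPS in astrocytes (control, knockout) and the difference of LPS response between cell types (control, knockout). In that order DESeq2 called 285, 515, 639, 827, 377 and 467, and the fit without a filter 463, 637, 804, 1027, 638 and 803. Without the third astrocyte LPS libraries the last 4 became 734, 912, 390 and 529. Sex as labelled gave 158 (knockout microglia), 295 (control astrocytes), 28 and 40 (differences), and fits of 2 groups alone gave 349 and 184 in astrocytes. Without a filter the genotype comparisons (saline, LPS, average, LPS response) called 22, 19, 40 and 7 genes in microglia and 8, 26, 9 and 13 in astrocytes, against 0, 0, 1 and 0 and 1, 1, 1 and 0, and DESeq2 called 1, 1, 4 and 1 and 2, 1, 1 and 0.

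The replicate block called 286 genes for LPS in control astrocytes, 92 and 175 for the differences between cell types, and 6, 7 and 3 members in control astrocytes, knockout astrocytes and the knockout difference. Same-numbered microglia libraries did not all deviate together (r -0.305 to 0.702). C1s1, C1ra and Cfb rest on few counts in several groups, which limits their precision.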
